A study of Mus musculus with 23 samples.

Results

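Hemoglobin, the oxygen carrier of red blood cells, is built from alpha and beta globin chains that each hold a heme group. In the adult mouse the alpha chains come from the neighbouring genes *Hba-a1* and *Hba-a2* and the beta chains from a cluster that holds *Hbb-bs* and *Hbb-bt*. *Alas2* encodes the erythroid form of the enzyme that starts heme synthesis, and *Slc4a1* encodes band 3, the anion exchanger of the red cell membrane. In adult mice red cells are made mainly in bone marrow and spleen, and the youngest circulating red cells, the reticulocytes, still carry transcripts of these genes. These 6 genes were looked up by symbol in the table of gene counts of the study, which holds 27179 genes. Of the 6, 5 had a row, and *Hbb-bt* was not analysed here. All 5 had reads, from 251 counts over the 15 mice for *Slc4a1* to 27883 for *Hba-a1*. The table also holds a row for *Hbb-b1*, the symbol of the adult major beta chain, which is given beside the 5 genes because it took most of the beta globin reads.

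The livers, sampled away from visible tumors, came from 15 female mice, all with the Alb-Cre transgene, which deletes floxed alleles in hepatocytes, and with both Trp53 alleles floxed. The 6 Ctrl mice had wild-type Braf and were Icmt flx/+, the 6 ABpIF/+ mice carried the Cre-activated BrafV600E knock-in allele (Braf CA/+) and were Icmt flx/+, and the 3 ABpIF/F mice carried Braf CA/+ with Icmt flx/flx. The genotype labels of both mutant groups write Braf as +/+, whereas the design text gives 1 BrafCA allele. The strain label of the mutants and of the Ctrl mouse BG3 records a further cross that is missing from the label of the other 5 Ctrl mice. Ages of the sequenced mice were not in the labels, and the study gives different ages for the ABpIF/F mice. The sources used here do not say whether livers were flushed of blood. The Alb-Cre transgene acts in hepatocytes, so Cre deletion was not aimed at red cells and their precursors. The study describes the floxed Icmt allele as hypomorphic, with lower expression also where Cre does not act. Icmt levels in red cells were not measured here.

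Libraries held 24742910 to 32262649 counts. *Icmt*, the deleted gene, lay at 15.2 to 16.6 CPM (counts scaled to a common library size by the TMM method) in the 3 ABpIF/F mice and at 27.8 to 37.4 CPM in the other 12, as the labels state. The 5 hemoglobin and erythroid genes together summed to 32.7 to 151 CPM in Ctrl, 73.5 to 239 in ABpIF/+ and 63.8 to 114 in ABpIF/F livers. The tissue label was checked on hepatocyte markers, whose summed level was 121389 to 280200 CPM over all mice. In bulk tissue, fewer cells of a type and less RNA per cell cannot be told apart.

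The copies of the globin genes are shown first, because they set which reads could be assigned to which gene. On GRCm38 with GENCODE M21, *Hba-a1* lies at chr11:32283511-32284465 on the plus strand and *Hba-a2* at chr11:32296489-32297298 on the same strand. Their coding sequences are 429 bases long and differ at 1 base, C381T, counted from the first base of the start codon with the *Hba-a1* base first, and encode the same protein. The coding bases 351 to 410 of both copies, with the differing base in capitals, read:

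Hba-a1: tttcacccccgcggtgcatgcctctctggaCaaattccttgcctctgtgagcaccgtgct

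Hba-a2: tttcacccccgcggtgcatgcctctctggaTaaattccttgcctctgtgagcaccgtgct

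Of the windows of 150 bases in the *Hba-a1* transcript of 699 bases, 48.4% occur unchanged in the *Hba-a2* transcript of 554 bases, and 65.7% of the *Hba-a2* windows occur in *Hba-a1*. The beta genes are as close. *Hbb-bs*, at chr7:103826534-103828096 on the minus strand, and *Hbb-bt* differ at 1 of 444 coding bases, C417T, also without a change in the protein. The coding bases 387 to 444, with the differing base in capitals, read:

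Hbb-bs: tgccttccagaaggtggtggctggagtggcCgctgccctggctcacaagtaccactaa

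Hbb-bt: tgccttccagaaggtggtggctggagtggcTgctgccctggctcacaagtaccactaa

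In the beta pair, 58.7% of the *Hbb-bs* windows of 150 bases occur in *Hbb-bt*. A read from a shared stretch fits both copies, and how such reads were counted is not given in the sources used here. Values of single copies are therefore uncertain, and the sum of *Hba-a1* with *Hba-a2* was fitted as well. As *Hbb-bt* had no row, *Hbb-bs* was summed with *Hbb-b1*, whose sequence was not compared here. *Slc4a1* (chr11:102348824-102366203, minus strand) and *Alas2* (chrX:150547375-150570638, plus strand) have no such copy among these genes. *Alas2* overlaps the protein-coding gene *Apex2* on the opposite strand.

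The promoters are shown as a description of the genes. Their part in the variation of these genes across mice was not tested. The 250 bases before the RefSeq start (GRCm38.p6) are given on the gene's strand, with matches on either strand in capitals. The motifs searched were the core of the GATA factor motif (GATAA), the Krüppel-like factor box (CACCC), the box bound by NF-Y (CCAAT) and the start of the TATA box (TATAA).

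Hba-a1, chr11:32283422-32283671, plus strand: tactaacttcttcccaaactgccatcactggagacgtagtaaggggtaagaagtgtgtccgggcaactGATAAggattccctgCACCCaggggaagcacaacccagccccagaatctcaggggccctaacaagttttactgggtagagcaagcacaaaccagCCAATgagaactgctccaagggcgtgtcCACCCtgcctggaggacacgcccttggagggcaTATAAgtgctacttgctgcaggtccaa

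Hbb-bs, chr7:103827929-103828178, minus strand: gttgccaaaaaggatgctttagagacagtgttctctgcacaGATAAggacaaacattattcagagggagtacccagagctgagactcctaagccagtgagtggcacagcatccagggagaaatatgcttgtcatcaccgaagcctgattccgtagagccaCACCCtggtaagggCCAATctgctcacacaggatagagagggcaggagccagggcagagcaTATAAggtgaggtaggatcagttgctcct

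Alas2, chrX:150547167-150547416, plus strand: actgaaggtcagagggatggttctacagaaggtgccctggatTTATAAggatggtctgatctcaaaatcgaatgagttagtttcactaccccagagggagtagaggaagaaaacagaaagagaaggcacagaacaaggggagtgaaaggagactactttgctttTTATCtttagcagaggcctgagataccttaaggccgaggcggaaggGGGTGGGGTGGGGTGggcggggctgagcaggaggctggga

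A promoter sequence was at hand for 4 of the 5 genes. GATAA matched in 4 of the 4, against 22.6% of 32851 RefSeq promoter windows of the same length, CACCC in 4 (52.0% of all windows), TATAA in 4 (22.8%) and CCAAT in 3 (33.8%), all but *Alas2*. In *Hba-a1* the TATAA match lay at -27 to -23 and in *Hbb-bs* at -29 to -25 from the start. In *Alas2* the GATAA match was on the reverse strand at -86 to -82, and its TATAA matches, which overlap on both strands, lay far from the start, at -207 to -203 and -208 to -204. The table's 300-base windows of *Hba-a1* and *Hba-a2* share a run of 297 bases, so they are not independent matches. A match is a description of the letters and not a bound site.

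*Hba-a1* was higher in ABpIF/+ than in Ctrl livers. It lay at 15.2, 31.7 and 62.8 CPM (lowest, median and highest) in the 6 Ctrl mice and at 40.7, 107 and 167 CPM in the 6 ABpIF/+ mice. The 3 ABpIF/F mice BG183, BG38 and BG90 had 31.9, 59.8 and 45.4 CPM. Of the ABpIF/+ mice, 5 exceeded the highest Ctrl mouse, BG3, whereas the mouse BG55 fell among the Ctrl mice, and all ABpIF/F mice lay within the Ctrl range. The mean rose from 33.9 ± 16.8 CPM (SD, n = 6 mice) in Ctrl to 107 ± 46.2 (SD, n = 6) in ABpIF/+, a log2 fold change of 1.66 ± 0.38 (SE) or 3.16-fold (edgeR quasi-likelihood test with Benjamini-Hochberg adjustment over all genes, adjusted p = 0.00494). It passed the thresholds for a call, an adjusted p under 0.01 and at least a 2-fold change. With BG3 as the only Ctrl mouse, the log2 fold change was 0.77 (adjusted p = 0.724), and the call was lost. It was also lost with library totals only (adjusted p = 0.0112) and without any 1 of the Ctrl mice malpa387, malpa454 and malpa458 or the ABpIF/+ mice BG175, BG31 and BG40 (adjusted p = 0.0109 to 0.0137). Over all alternative settings the adjusted p ran from 1.77e-06 to 0.724.

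*Hba-a2*, the other alpha globin copy, did not pass the test in any comparison. Ctrl mice had 5.97, 16.6 and 61.0 CPM (lowest, median and highest), ABpIF/+ mice 19.8, 31.5 and 45.5 CPM, and the ABpIF/F mice BG183, BG38 and BG90 had 16.2, 28.1 and 18.7 CPM. The highest liver of all was the Ctrl mouse BG3, whose value was above every mutant, and all groups overlapped. The log2 fold change of ABpIF/+ vs Ctrl was 0.51 ± 0.45 (SE, adjusted p = 0.538). It was 1.10 (adjusted p = 0.0241) without BG3 and stayed above 0, from 0.31 to 1.10, when any 1 mouse was left out. Only with BG3 as the only Ctrl mouse was it below 0, at -0.92.

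The summed alpha globin counts were 56.6 ± 36.3 CPM (SD, n = 6) in Ctrl, 139 ± 51.7 (SD, n = 6) in ABpIF/+ and 66.7 ± 20.0 (SD, n = 3) in ABpIF/F livers. The log2 fold change of ABpIF/+ vs Ctrl was 1.30 ± 0.40 (SE, edgeR adjusted p = 0.0294), short of the threshold. It was 1.69 (adjusted p = 0.00272) without BG3 and 0.17 (adjusted p = 1) with BG3 as the only Ctrl mouse. Against Ctrl, the ABpIF/F livers differed by 0.24 ± 0.48 (SE, adjusted p = 1), and ABpIF/+ exceeded ABpIF/F livers by 1.06 ± 0.51 (SE, adjusted p = 0.196).

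**Figure D1:**
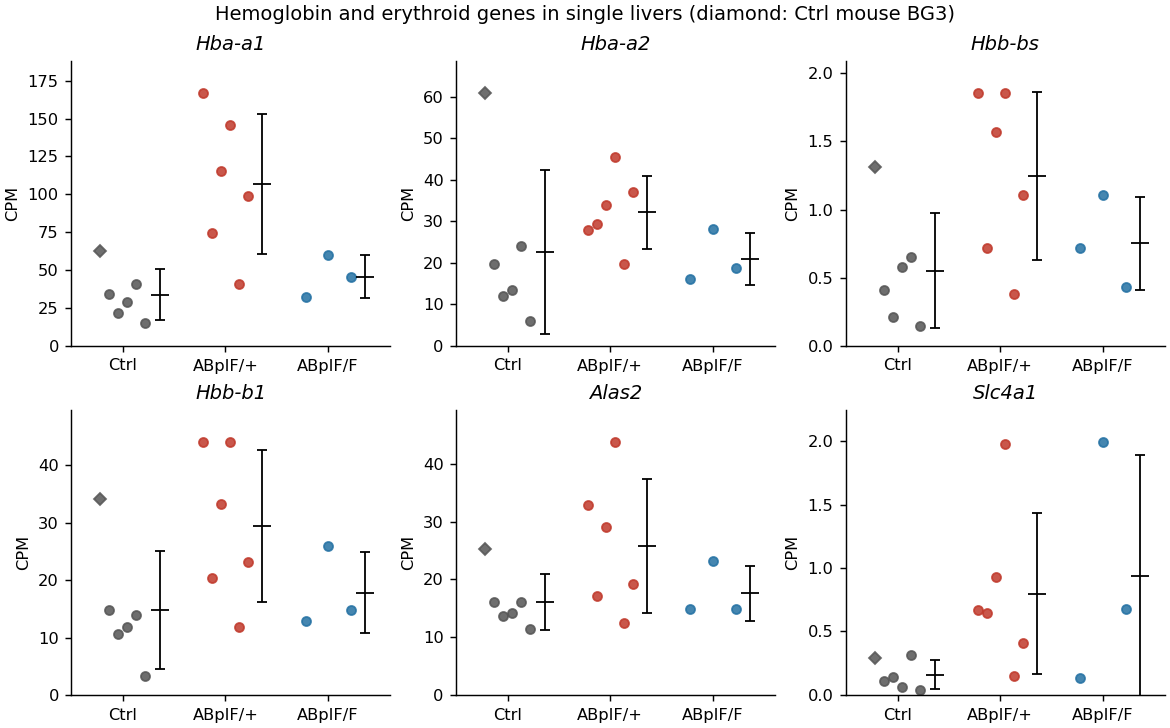
CPM on a linear axis from 0 for each gene (panels) in each liver (points, Ctrl grey, ABpIF/+ red, ABpIF/F blue), with the group mean and SD beside the points. The Ctrl mouse BG3 (diamond) is the highest Ctrl liver in 5 of the 6 panels, and 5 of 6 ABpIF/+ livers stand above every Ctrl liver for *Hba-a1*.

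The share of each copy in the alpha globin counts was compared as well. *Hba-a1* gave 50.8, 63.8 and 71.8% (lowest, median and highest mouse) of the alpha globin counts in Ctrl and 67.3, 74.5 and 85.7% in ABpIF/+ livers. The ABpIF/F mice BG183, BG38 and BG90 had 66.4, 68.0 and 70.9%. The lowest share was that of BG3 and the highest that of the ABpIF/+ mouse BG175, which had 5225 *Hba-a1* and 870 *Hba-a2* counts. The mean share was 75.2 ± 6.26% (SD, n = 6) in ABpIF/+ and 63.5 ± 7.14% (SD, n = 6) in Ctrl livers (two-sided exact permutation test, p = 0.0108, adjusted p = 0.0649 over 6 tests of ratios), so the difference did not hold after correction. Without BG3 the exact permutation p was 0.0217. This ratio was examined after the values were seen.

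**Figure D2:**
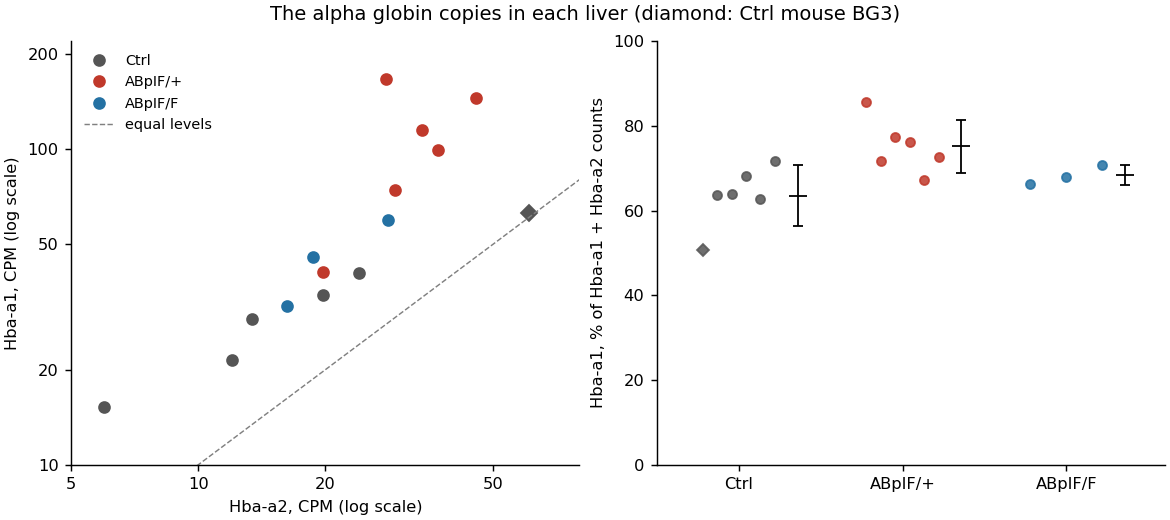
Left, *Hba-a1* against *Hba-a2* CPM in each liver on log axes, with the line of equal levels dashed. Right, the share of *Hba-a1* in the counts of both copies in percent, with group mean and SD. BG3 (diamond) sits next to the line, and the share is highest in an ABpIF/+ liver, at 85.7%.

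*Hbb-bs*, a beta globin gene, had few reads, between 4 and 58 per library. It lay at 0.149, 0.493 and 1.31 CPM (lowest, median and highest) in Ctrl and at 0.377, 1.34 and 1.86 CPM in ABpIF/+ livers. BG183, BG38 and BG90 had 0.718, 1.11 and 0.429 CPM. The mutant and Ctrl groups overlapped, with 3 of 6 ABpIF/+ mice above the highest Ctrl mouse. The log2 fold change of ABpIF/+ vs Ctrl was 1.18 ± 0.46 (SE, adjusted p = 0.0671), and -0.076 (adjusted p = 1) with BG3 as the only Ctrl mouse. *Hbb-b1*, which held 9073 counts against 372 of *Hbb-bs* over the 15 mice, had 14.8 ± 10.3 CPM (SD, n = 6) in Ctrl, 29.5 ± 13.3 (SD, n = 6) in ABpIF/+ and 17.9 ± 7.08 (SD, n = 3) in ABpIF/F livers. The authors' table gives both symbols the same Ensembl gene, so their reads were read only as a sum. The sum changed by 1.00 ± 0.47 (SE, log2, adjusted p = 0.159) in ABpIF/+ vs Ctrl and by 1.44 (adjusted p = 0.0266) without BG3. With BG3 as the only Ctrl mouse it was -0.21 (adjusted p = 1).

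Alpha globin counts per beta globin count, from these sums, were 3.06, 3.53 and 6.04 (lowest, median and highest) in Ctrl, 4.16, 4.59 and 5.62 in ABpIF/+ and 3.55, 3.25 and 4.21 in the ABpIF/F mice BG183, BG38 and BG90. The largest difference was between ABpIF/+ (4.69 ± 0.573, SD, n = 6) and ABpIF/F livers (3.67 ± 0.493, SD, n = 3), with an exact permutation p of 0.0476 and an adjusted p of 0.143 over the 6 tests.

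*Alas2*, the erythroid heme synthesis enzyme, did not pass the test in any comparison. Ctrl livers had 11.4, 15.2 and 25.3 CPM (lowest, median and highest), ABpIF/+ livers 12.5, 24.2 and 43.8 CPM, and BG183, BG38 and BG90 had 14.8, 23.2 and 14.9 CPM. BG3 was again the highest Ctrl liver, and 3 of 6 ABpIF/+ livers were above it. The log2 fold change was 0.68 ± 0.28 (SE, adjusted p = 0.104) in ABpIF/+ vs Ctrl, 0.13 ± 0.35 (SE, adjusted p = 1) in ABpIF/F vs Ctrl and 0.55 ± 0.35 (SE, adjusted p = 0.375) in ABpIF/+ vs ABpIF/F. With BG3 as the only Ctrl mouse, that of ABpIF/+ vs Ctrl was 0.024 (adjusted p = 1).

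*Slc4a1*, the membrane anion exchanger, had the largest fold changes of the 5 genes in both comparisons with Ctrl, the smallest between the mutant groups, and the fewest reads, 1 to 10 counts in Ctrl, 4 to 51 in ABpIF/+ and 4 to 72 in ABpIF/F livers. It lay at 0.0373, 0.126 and 0.311 CPM (lowest, median and highest) in Ctrl and at 0.151, 0.660 and 1.97 CPM in ABpIF/+ livers. The ABpIF/F mice had 0.131 (BG183), 1.99 (BG38) and 0.679 CPM (BG90). In both mutant groups all but 1 mouse, BG55 and BG183, exceeded the highest Ctrl mouse. The log2 fold change was 2.29 ± 0.65 (SE, adjusted p = 0.0115) in ABpIF/+ vs Ctrl and 2.54 ± 0.73 (SE, adjusted p = 0.0178) in ABpIF/F vs Ctrl, both short of the threshold of 0.01. Without BG38, which had 72 of the ABpIF/F counts against 4 and 19 in BG183 and BG90, the value of ABpIF/F vs Ctrl was 1.31 (adjusted p = 0.439). With BG3 as the only Ctrl mouse the values were 1.45 (adjusted p = 0.759) and 1.64 (adjusted p = 0.716). Between the mutant groups it was -0.25 ± 0.68 (SE, adjusted p = 1). Its adjusted p ran from 0.00188 to 0.759 in the first and from 0.0025 to 0.716 in the second comparison over the alternatives.

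Over the 5 genes, 1 was called in ABpIF/+ vs Ctrl, where 10.0% of the 27179 genes in the table were called and 4.69% were called higher. At an adjusted p under 0.05 there were 2, *Hba-a1* and *Slc4a1*, against 12.4% of all genes. In the edgeR test 4 had an unadjusted p under 0.05, and DESeq2 called 2. The share of all genes with an unadjusted p under 0.05 or called by DESeq2 is not given here. Such counts therefore stand without a background in all 3 comparisons. All 5 had a log2 fold change above 0, with a median of 1.18 against 0.00 for all genes with a read. In ABpIF/F vs Ctrl edgeR called 0 of the 5 (6.93% of all genes), 1 had an unadjusted p under 0.05, and DESeq2 called 1. Of them 4 lay above 0, with a median of 0.43 against 0.09. In ABpIF/+ vs ABpIF/F edgeR again called 0 (7.24% of all genes), 1 had an unadjusted p under 0.05, and DESeq2 called 1. The largest difference there was that of *Hba-a1*, 1.23 ± 0.48 (log2, SE, adjusted p = 0.105), 2.34-fold higher in ABpIF/+, and the median of the 5 was 0.62 against -0.05. The comparisons share mice, and their values are given side by side only. In none of the 3 comparisons were the groups free of overlap for any of the 5 genes, whereas 21.2%, 22.8% and 24.9% of the 20380 genes with a read had groups that did not overlap in ABpIF/+ vs Ctrl, ABpIF/F vs Ctrl and ABpIF/+ vs ABpIF/F.

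**Figure D3:**
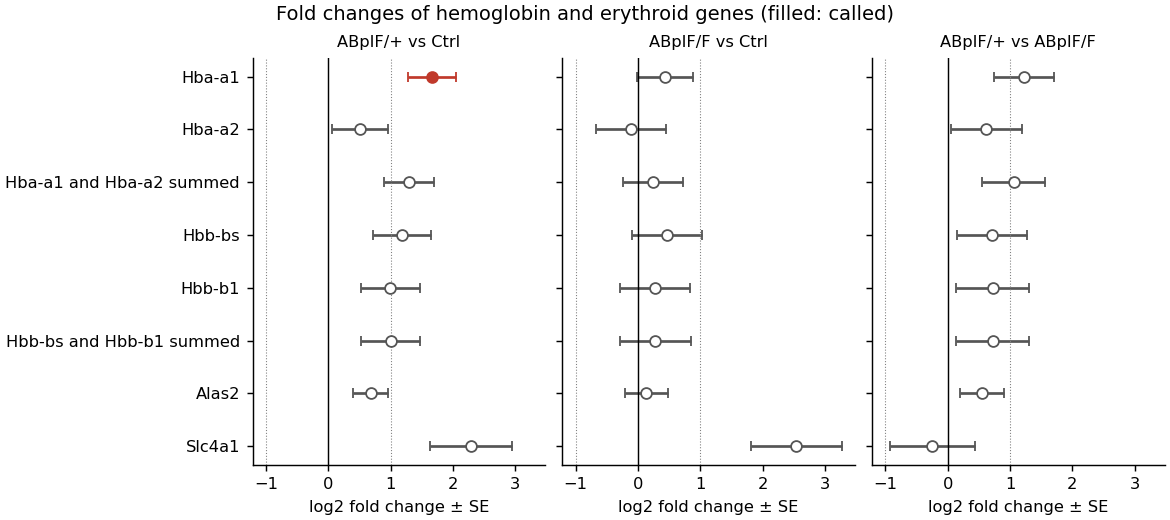
Log2 fold change with SE for each gene and for the alpha and beta globin sums (rows) in the 3 comparisons (panels). Filled red marks a call and dotted lines a 2-fold change. The filled point is *Hba-a1* in ABpIF/+ vs Ctrl, at 1.66, and *Slc4a1* lies farthest right in both comparisons with Ctrl.

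Per kilobase of merged exon (GENCODE M21), the order of mean levels in Ctrl livers was *Hba-a1* (41.7 CPM per kb), *Hba-a2* (34.0), *Alas2* (6.71), *Hbb-bs* (0.719) and *Slc4a1* (0.0325). In ABpIF/+ livers it was the same order, with 132, 48.3, 10.7, 1.62 and 0.163 CPM per kb. The alpha copies in Ctrl lay within the spread between mice, but both were measured in the same mice. There, *Hba-a1* counts per *Hba-a2* count, before correction for length, ran from 1.03 in BG3 to 2.55, with a median of 1.76. Beta globin could not be ranked, because *Hbb-b1* has no length in this annotation.

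The 5 genes varied together from mouse to mouse. Pearson's r of log2 CPM over the 15 mice ran from 0.68 (*Hba-a2* with *Slc4a1*) to 0.91 (*Hba-a1* with *Hbb-bs*) over the 10 pairs, and from 0.63 to 0.92 after the group means were removed. BG40 and BG175 were the highest ABpIF/+ mice and BG55 the lowest, with summed levels of 239, 230 and 73.5 CPM, and in Ctrl the range ran from 32.7 CPM in the mouse malpa462 to 151 CPM in BG3. These are descriptions over mice that share group and scaling. Among the 10 other genes most like the mean of the 5, out of 12313 genes with at least 1 CPM on average, were *Hbb-b1* (r = 0.96), *Bpgm*, the bisphosphoglycerate mutase (0.89), and *B9d1* (0.85). Lower in this order came the immunoglobulin A heavy chain gene *Igha* (0.84), *Zbtb12* (0.81), *Rce1* (0.80), *Gm19950* (0.79), the kappa light chain gene *Igkc* (0.79) and *1810030O07Rik* (0.79). With group means removed, r stayed at 0.95 for *Hbb-b1*, 0.87 for *Bpgm* and 0.87 for *B9d1*, and fell to 0.64 to 0.74 for the 6 genes named after them. *Hbb-b1* has the same Ensembl gene as *Hbb-bs*, 1 of the 5, in the authors' table, so its likeness is not independent of them. In the fit, *Bpgm* differed by 0.53 ± 0.18 (log2, SE, adjusted p = 0.0321) in ABpIF/+ vs Ctrl and was not called.

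Several genes of developing red cells were near the limit of detection. *Epb42*, a protein of the red cell membrane skeleton, had 0 to 12 counts, *Gata1*, the erythroid transcription factor, 0 to 10, and *Rhag*, *Cldn13* and *Hemgn* at most 2 counts in any mouse. For *Epb42* and *Gata1* the ABpIF/F mouse BG38 had the highest count. The embryonic globins *Hbb-y*, *Hbb-bh1* and *Hba-x* had no read in any of the 15 mice, where 3 counts correspond to 0.0831 to 0.123 CPM, a limit that covers counting error only. *Klf1*, an erythroid transcription factor, was an exception, with 4.83 ± 1.46 CPM (SD, n = 6) in Ctrl, 9.76 ± 1.57 (SD, n = 6) in ABpIF/+ and 2.51 ± 1.36 (SD, n = 3) in ABpIF/F livers. It was called in ABpIF/+ vs Ctrl (log2 1.02 ± 0.22 SE, adjusted p = 0.00142) and in ABpIF/+ vs ABpIF/F (1.97 ± 0.30 SE, adjusted p = 0.0001). By mouse, *Klf1* followed the sum of the 5 genes only in part. BG38, the highest ABpIF/F liver for that sum, had the lowest *Klf1* of all mice, 1.25 CPM. BG55, the lowest ABpIF/+ liver for the sum, had 10.5 CPM. BG40 and BG3, the highest of their groups for the sum, were also the highest for *Klf1*, at 12.3 and 7.34 CPM.

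The genes around these 5 were counted by list, against 4.69% of the whole table called higher and 5.35% lower in ABpIF/+ vs Ctrl and 4.55% higher and 2.38% lower in ABpIF/F vs Ctrl. The medians of all genes with a read were 0.00 and 0.09. Of 22 genes of the red cell membrane and skeleton, 3 were called higher and 1 lower in ABpIF/+ vs Ctrl, and 2 higher and 0 lower in ABpIF/F vs Ctrl, with medians of 0.21 and 1.05 on the log2 scale. *Ermap*, an erythroblast membrane protein, had 0 or 1 count in each Ctrl mouse, 1 to 57 in ABpIF/+ and 50 to 80 in ABpIF/F mice, and was called in both comparisons (adjusted p = 7.64e-06 and 3.65e-06). *Tmod1*, an actin-capping protein, was called higher in ABpIF/F vs Ctrl (1.22 ± 1.64 against 0.0545 ± 0.0454 CPM, SD, n = 3 and 6, adjusted p = 0.000409). The 3 ABpIF/F livers had 0.131, 0.429 and 3.10 CPM, so that 1 mouse held most of this mean, and the lowest Ctrl liver had 0 counts. *Xk*, a membrane transport protein, fell in ABpIF/+ vs Ctrl by 1.53 on the log2 scale (adjusted p = 1.23e-05). *Epb41*, protein 4.1, differed by 0.72 ± 0.14 (log2, SE, adjusted p = 0.000377), below the 2-fold threshold.

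Of 18 red cell enzymes and cytosolic proteins, 1 was called higher and 3 lower in ABpIF/+ vs Ctrl, and 2 higher and 2 lower in ABpIF/F vs Ctrl. *Car1*, carbonic anhydrase, which is abundant in red cells, was lower in ABpIF/+ than in Ctrl livers, whereas *Hba-a1* was higher. It had 74 to 171 counts in Ctrl and 1 to 22 in ABpIF/+ livers (log2 -4.04 ± 0.63 SE, adjusted p = 0.000128), with 98, 21 and 8 counts in BG183, BG38 and BG90. Which cells the *Car1* reads came from was not tested. *Ypel4* was called higher in both mutant groups, from 0.273 ± 0.191 CPM (SD, n = 6) in Ctrl to 1.49 ± 0.589 (SD, n = 6) in ABpIF/+ and 3.63 ± 1.05 (SD, n = 3) in ABpIF/F livers. *Cat*, catalase, and *Hagh*, glyoxalase II, which hepatocytes also express, were called lower in both.

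Of 18 heme synthesis genes, *Alas2* included, 0 were called higher and 3 lower in ABpIF/+ vs Ctrl (median log2 -0.44), and 0 higher and 5 lower in ABpIF/F vs Ctrl (median -0.54). *Cpox*, coproporphyrinogen oxidase, fell by 1.69 on the log2 scale in ABpIF/+ (adjusted p = 1.5e-08) and by 1.49 in ABpIF/F livers (adjusted p = 6.75e-06). *Uros*, uroporphyrinogen III synthase, fell by 1.63 in ABpIF/+ vs Ctrl (adjusted p = 1.46e-09) and had 14.5 ± 2.08 CPM (SD, n = 3) in ABpIF/F against 18.7 ± 2.12 (SD, n = 6) in Ctrl livers. The mitochondrial transporters *Abcb10* and *Abcb6* fell by 1.12 and 1.33 in ABpIF/F vs Ctrl (adjusted p = 1.43e-05 and 1.12e-06). *Alas1*, the form of the first enzyme that hepatocytes use, named after its values were seen, had 46.9 ± 5.74 CPM (SD, n = 3) in ABpIF/F against 789 ± 474 (SD, n = 6) in Ctrl livers (log2 -4.07 ± 0.62 SE, adjusted p = 0.000331).

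Among 16 erythroid transcription factors and receptors, 2 were called higher and 3 lower in ABpIF/+ vs Ctrl and 0 in either direction by edgeR in ABpIF/F vs Ctrl. *Ldb1*, a cofactor of GATA factors that is also made outside red cells, rose by 1.92 ± 0.15 (log2, SE, adjusted p = 2.49e-09) in ABpIF/+ livers, and *Kit*, the stem cell factor receptor, fell by 1.73 (adjusted p = 0.000132). *Stat5a* had a log2 fold change of -0.95 (adjusted p = 0.000109), below the 2-fold threshold.

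Of 25 genes that handle iron, heme and free hemoglobin, 5 were called higher and 0 lower in ABpIF/+ vs Ctrl, and 5 higher and 1 lower in ABpIF/F vs Ctrl. *Hp*, haptoglobin, the plasma protein that binds free hemoglobin, went from 1405 ± 228 CPM (SD, n = 6) in Ctrl to 5930 ± 2127 (SD, n = 6) in ABpIF/+ and 5594 ± 3249 (SD, n = 3) in ABpIF/F livers (adjusted p = 2.35e-06 and 4e-05). *Trf*, transferrin, rose by 1.47 ± 0.18 and 1.45 ± 0.21 (log2, SE, adjusted p = 1.19e-06 and 2.26e-05), and *Cp*, ceruloplasmin, by 1.89 ± 0.17 and 1.80 ± 0.20 (SE, adjusted p = 2.17e-08 and 8.21e-07). *Epo*, the hormone that drives red cell production, was named after its values were seen. It had no read in the 6 Ctrl mice, 0 to 7 counts in ABpIF/+ and 0, 10 and 10 in BG183, BG38 and BG90, and was called in both comparisons (adjusted p = 0.00891 and 0.00758). Its annotated span overlaps other genes on both strands. *Hfe*, a regulator of iron sensing, had log2 fold changes of -0.79 and -0.62, below the 2-fold threshold. Haptoglobin, transferrin and ceruloplasmin are made by hepatocytes, and *Hp* and *Cp* are acute phase genes.

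Markers of other blood and liver cells were counted in the same way, against 4.69% of all genes called higher in ABpIF/+ and 4.55% in ABpIF/F vs Ctrl. Of 12 platelet and megakaryocyte markers, 3 were called higher in ABpIF/+ and 6 in ABpIF/F vs Ctrl. Their summed level was 10.6 to 19.6 CPM in Ctrl, where BG3 was the highest, 12.7 to 23.7 in ABpIF/+ and 14.7 to 35.3 in ABpIF/F livers, where BG38 was the highest. *Tubb1*, platelet beta-tubulin, had 1 to 4 counts in Ctrl, 3 to 19 in ABpIF/+ and 6, 65 and 29 in BG183, BG38 and BG90, and was called in both comparisons (adjusted p = 0.00677 and 0.000225). *Ppbp* and *Pf4*, platelet chemokines, were called in ABpIF/F vs Ctrl (adjusted p = 0.000695 and 0.00442). Of 14 neutrophil markers, 3 were called higher in ABpIF/+ and 13 in ABpIF/F vs Ctrl, and without *Lcn2*, which hepatocytes also make, they summed to 2.65 to 5.25, 8.41 to 27.1 and 8.62 to 121 CPM in Ctrl, ABpIF/+ and ABpIF/F livers.

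Macrophage markers were lower in ABpIF/+ livers, where 5.35% of all genes were called lower. Of 12 macrophage and Kupffer cell markers, 0 were called higher and 7 lower in ABpIF/+ vs Ctrl, with summed levels of 186 to 326 CPM against 441 to 613 in Ctrl and 376 to 918 in ABpIF/F livers. *Adgre1*, which encodes F4/80, had 4.70 CPM on average in ABpIF/+ and 17.8 in Ctrl livers. Of 12 sinusoidal endothelial markers 0 were called higher and 3 lower, and their sums overlapped, at 157 to 327 CPM in ABpIF/+ and 268 to 396 in Ctrl livers. Lymphocyte markers summed to at most 17.9 CPM in any mouse, with 0 of 12 called higher and 4 lower in ABpIF/+ vs Ctrl. All 12 had a mean below 1 CPM over the mice. The immunoglobulin genes *Igha* and *Igkc*, outside this list, were called higher in ABpIF/+ vs Ctrl. Their log2 fold changes were 3.28 and 2.48 (edgeR adjusted p = 0.000886 and 0.00565). Of 13 hepatocyte markers, 3 were called higher and 1 lower in the same comparison, with sums of 208005 to 280200 CPM in ABpIF/+ against 121389 to 161929 in Ctrl livers. The part of these lists in the values of the hemoglobin genes was not tested.

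**Figure D4:**
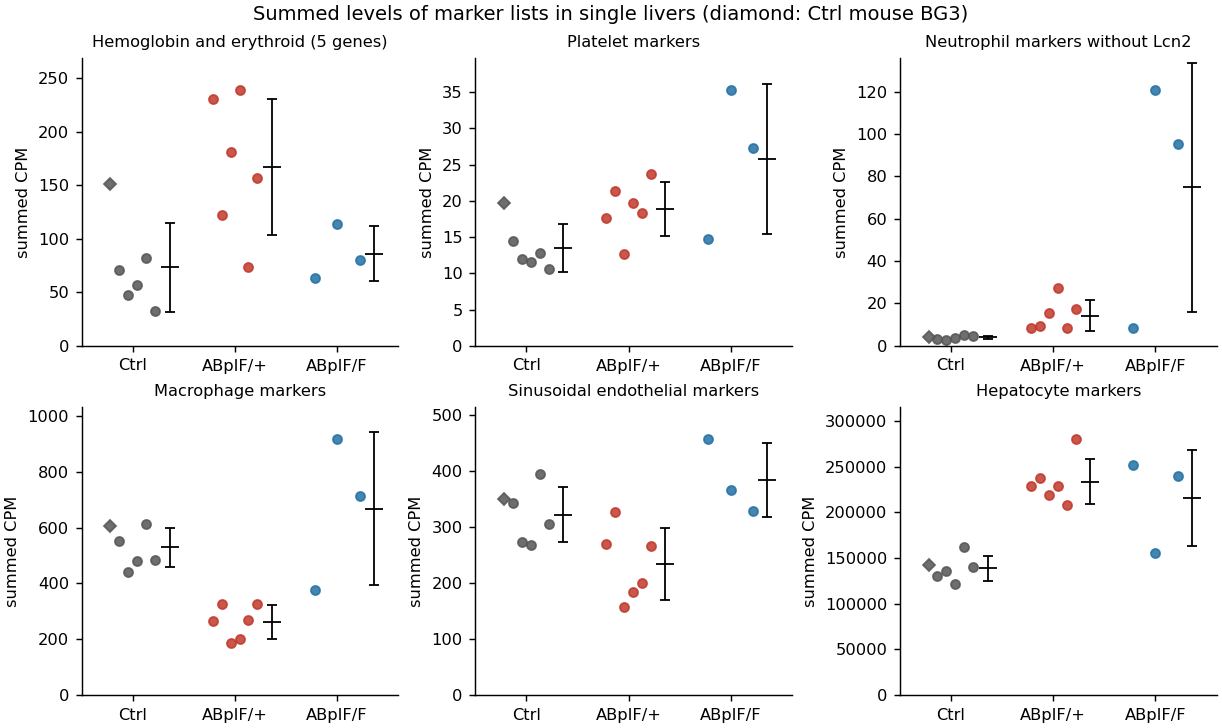
Summed CPM of the 5 hemoglobin and erythroid genes and of marker lists (panels, linear axes from 0) in each liver, with group mean and SD. The hemoglobin sum of BG3 (diamond), 151 CPM, stands above the other Ctrl livers, and the neutrophil sum without *Lcn2* is high in 2 of the 3 ABpIF/F livers.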

How the data were processed

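RNA was sequenced from livers of 15 mice. Per the labels and the study's methods, the authors extracted total RNA with Trizol, made Illumina stranded mRNA libraries, trimmed the paired reads, aligned them to mm10 with HISAT2 (2.21 in the submitters' processing notes) and assigned them to genes with featureCounts 2.0.8. The gene annotation and the strand setting are not given in the sources used here. The deposited values are unnormalized counts for 27179 genes, with 15 columns, each of a single mouse, although 23 samples are listed, 8 mice being named by 2 samples. A second deposited file repeats the counts. There, 5 columns of per-sample values were not used, and 10 held the same counts. Columns with the authors' fold changes and p-values were not used. Rows without a symbol were kept in the library totals. P-values set a difference between groups against the spread between mice. With BG3 as the only Ctrl mouse, that spread comes from the mutant groups only.

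The tests used edgeR 4.0.16 under R 4.3.3, in the quasi-likelihood form of edgeR 3, with TMM scaling, robust dispersions, no filter and 1 fit of 3 groups. P-values were adjusted by Benjamini-Hochberg over all genes, and a call needed both an adjusted p below 0.01 and a log2 fold change of 1 or more in size. CPM use TMM-scaled library sizes and log2 CPM a prior count of 2. The sums of *Hba-a1* with *Hba-a2* and of *Hbb-bs* with *Hbb-b1* replaced the single genes in the same fit. Ratios were compared by exact permutation over mice in scipy 1.17.1. Gene positions came from GENCODE M21 and promoters from RefSeq, both on GRCm38. The fit was also run on simulated data, where only genes with more reads than *Hbb-bs* and *Slc4a1* were changed. It therefore does not cover genes as low as these, and its outcome is not given here. The hemoglobin and erythroid genes and the gene lists were chosen with earlier results of these data known. Named were the 5 measured genes, from each list up to 4 genes with at least 1 CPM in a group and the smallest adjusted p, marker genes near 0, and the 10 genes most like the 5. Some genes that this rule selects are not reported here. Alternatives were RLE or no scaling, scaling without these genes, filterByExpr, DESeq2 1.42.0, the method of edgeR 4, no robust estimation, other thresholds, fits of 2 groups, BG3 as the only Ctrl mouse, and leaving out each mouse. The beta globin sum with *Hbb-b1*, planned with *Hbb-bt*, the other thresholds and BG3 alone for the sums, and the ratios were added after seeing the data.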

Additional observations from a re-analysis of the deposited data

Results flagged for a closer look

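On the CPM scale, 16 groups of 6 values were tested for a mouse that stood apart, and 3 were flagged. In all 3 it was the Ctrl mouse BG3, set against the other 5 Ctrl mice. The test took the gap to the nearest mouse over the whole range. Chance flags about 1 in 20 such groups if values are normally distributed, which was not checked. The genes are also not independent of each other. Gaps were not taken on log2 CPM, where a high value stands out less, so the flags hold for CPM only. BG3 had 61.0 CPM of *Hba-a2*, 25.3 CPM of *Alas2* and 34.2 CPM of *Hbb-b1*, with gaps of 0.671, 0.656 and 0.63 of the range against a critical value of 0.625. It is the Ctrl mouse whose strain label matches that of the mutants, so that for the other 5 Ctrl mice strain label and genotype cannot be told apart. The part of the strain in the values of the hemoglobin genes was not tested.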

How the results depend on the processing

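Of 5 genes, 1 was called in ABpIF/+ vs Ctrl. The number was 0 with library totals only, with a log2 fold change of at least 2 and with BG3 as the only Ctrl mouse, and 2 with filterByExpr, DESeq2, an adjusted p under 0.05 or a fit of 2 groups, *Slc4a1* being added. Leaving out a mouse gave 0 to 2. Except at an adjusted p under 0.05 (12.4%), the share of all genes called under these alternatives is not given here. The call of *Hba-a1* was lost, at log2 fold changes of 1.46 to 1.67, without the Ctrl mice malpa387, malpa454 or malpa458 or the ABpIF/+ mice BG175, BG31 or BG40 (adjusted p 0.0109 to 0.0137), and *Slc4a1* was added without BG55, BG183 or BG38. In ABpIF/F vs Ctrl the number was 1 with DESeq2, with an adjusted p under 0.05 and without BG183, and 0 without any other mouse. In ABpIF/+ vs ABpIF/F it was 1 with DESeq2. The alpha globin sum in ABpIF/+ vs Ctrl passed with filterByExpr (1.30, adjusted p = 0.00983), with DESeq2 (1.29, adjusted p = 0.00497) and at an adjusted p under 0.05 (1.30). It ran from 1.13 to 1.69 when a mouse was left out and was 0.17 (adjusted p = 1) with BG3 as the only Ctrl mouse.

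Directions reversed in 14 cases, none with an adjusted p under 0.01. With BG3 as the only Ctrl mouse, *Hba-a2* and *Hbb-bs* became -0.92 and -0.076 and the beta sum -0.21 in ABpIF/+ vs Ctrl. In ABpIF/F vs Ctrl *Hba-a1*, *Hbb-bs* and *Alas2* became -0.51, -0.84 and -0.57 and the alpha and beta sums -0.94 and -0.98. There, leaving out a mouse gave -0.38 to 0.48 for *Hba-a2* (above 0 without BG3 and, at 0.048, without BG183), -0.12 to 0.30 for *Alas2*, -0.011 to 0.63 for the alpha sum and -0.094 to 0.71 for the beta sum, these 3 below 0 without BG38. *Slc4a1* in ABpIF/+ vs ABpIF/F ran from -0.76 to 0.98, above 0 without BG38. The cause was not tested, except that BG3 alone leaves 1 Ctrl mouse, assumed to vary like the other groups. Library totals only moved the median of all genes with a read from 0.00 to -0.14 in ABpIF/+ vs Ctrl and from -0.05 to -0.24 in ABpIF/+ vs ABpIF/F, and the 5 genes kept their direction under it. No paired analysis was possible because the numbers in the labels name libraries of 1 mouse and the columns carry none. The other deposited table was not run, because 5 of its columns were not used. At 4 to 58 counts of *Hbb-bs* and 1 to 72 of *Slc4a1* per library, depth limits their precision.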
